A study of Homo sapiens with 4 samples.

Results

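The anticodon loop, canonical positions 32 to 38, was described in 48 human tRNA references by the errors made when native tRNA is read in a nanopore. All nucleotides numbered 32 to 38 in the deposited numbering sheet were taken, 7 in each reference, which gave 336 of the 3721 nucleotides within the tRNAs; the other 3385 are the rest of the tRNA. The tRNA came from HCT116, an established cell line of human colorectal carcinoma. TRMT1L KO cells, in which the gene for the tRNA methyltransferase TRMT1L was knocked out, had 2 libraries, and WT cells of the same line had 2 libraries. Both genotypes were grown in the same medium with no further treatment named. The labels do not give the number of knockout clones, nor whether replicate libraries stand for separate cultures, so each p-value weighs a difference against the spread of these 4 libraries alone, which could be technical. Neither mRNA nor protein of TRMT1L was measured, so the files hold no direct check of the knockout.

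Libraries were made by Nano-tRNAseq, in which adaptors are joined to both ends of deacylated tRNA, reverse transcription opens its fold and the RNA strand itself passes the pore. For each nucleotide the files give the rate of mismatches (another base called), deletions (no base called) and insertions (an extra base called). The summed error is their sum. All rates below are percentages, and a difference is the TRMT1L KO mean minus the WT mean in percentage points. A rate does not name a modification or measure its amount, and tRNA without modifications was not analysed here.

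The anticodon loop carries the 3 letters that read the codon, at positions 34, 35 and 36, and some of the most elaborate modifications of the cell. The wobble nucleotide 34 and the purine at 37, next to the anticodon, are the chief sites: inosine, queuosine or uridines with side chains occur at 34, and threonylcarbamoyladenosine, isopentenyladenosine, methylguanosine or methylinosine at 37. Nucleotides 32 and 38 face each other where the loop meets its stem, and the nearly invariant uridine at 33 makes the sharp turn that presents the anticodon. TRMT1L acts outside the loop, since the title of the series assigns to it the dimethylguanosine at position 27 of tyrosine tRNA, in the stem just below.

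The loop was read with more errors than the rest of the tRNA in all 4 libraries. The summed error averaged 44.7% and 44.7% over the loop in the TRMT1L KO libraries, against 43.4% and 44.5% in the WT libraries. Over the rest of the tRNA it averaged 30.6% and 30.8% in TRMT1L KO and 29.9% and 29.9% in WT. Mismatches made up most of it, at 24.3% and 24.1% in TRMT1L KO and 23.8% and 24.2% in WT, and deletions most of the remainder, at 17.9% and 18.2% in TRMT1L KO and 16.97% and 17.7% in WT. Insertions averaged 2.47% and 2.41% in TRMT1L KO and 2.59% and 2.57% in WT, close to the rest of the tRNA (2.48% and 2.46% in TRMT1L KO, 2.54% and 2.46% in WT). By its means the loop thus stood apart in mismatches and deletions and not in insertions. The median insertion rate was somewhat higher in the loop, at 1.93% in TRMT1L KO and 2.03% in WT, against 1.70% and 1.65% over the rest.

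**Figure D1:**
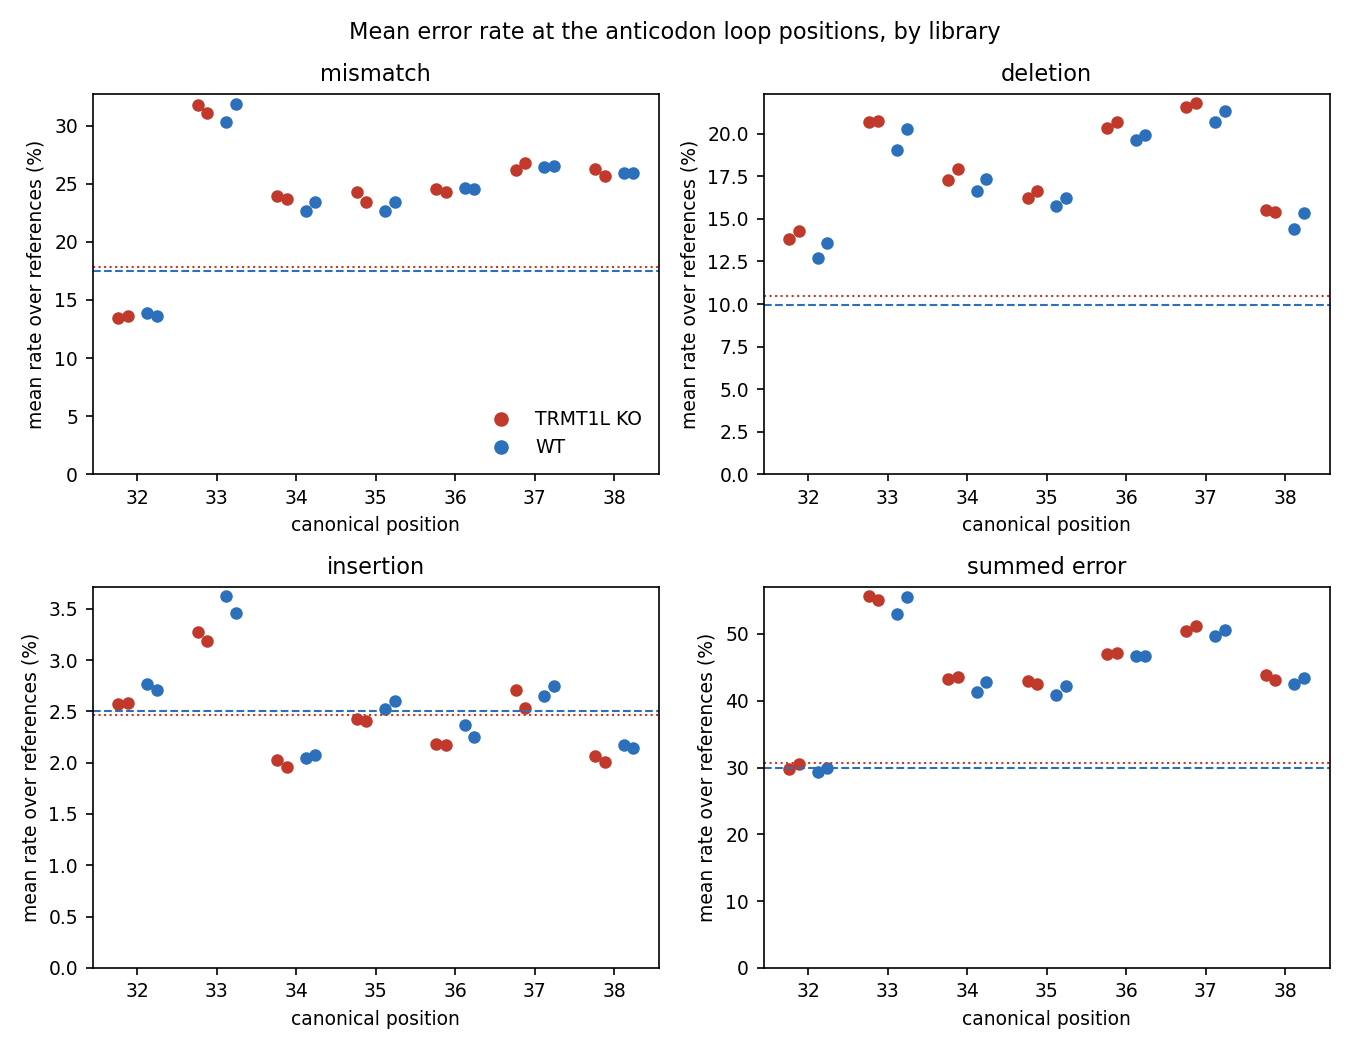
Mean rate over the 48 references at each loop position (x axis) in percent (y axis), for mismatches, deletions, insertions and their sum, with a point for each library (red TRMT1L KO, blue WT). The horizontal lines are the means over the rest of the tRNA (dotted red TRMT1L KO, dashed blue WT). Position 32 lies at or below the lines for mismatch and for the sum, and positions 33 to 38 lie above them.

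The 7 positions were not alike. Position 32, on the 5' side of the loop, was the quietest, with a median summed error over the 48 references of 22.8% in TRMT1L KO and 21.7% in WT. Position 33, the turn, was the noisiest, at 59.7% in TRMT1L KO and 57.7% in WT. It ranked 5 of the 73 canonical positions found in at least 40 references, in both genotypes. Position 37 followed with 49.4% in TRMT1L KO and 48.6% in WT, and its median deletion rate of 20.1% in TRMT1L KO and 19.1% in WT ranked 2 of 73. Position 32 ranked 43 in TRMT1L KO and 42 in WT, and the median of all 73 position medians was 24.7% in WT. These ranks describe the libraries, and neighbouring medians such as 34, 35 and 38, at 41.3%, 40.5% and 41.6% in WT, lie closer together than the references at any of them.

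Position 32 had a wide range, with summed errors of 6.70% to 85.4% in TRMT1L KO and 6.43% to 87.4% in WT. References named at positions 32, 33, 35 and 36 in the description of levels were singled out after their values were seen. The highest were Glu-TTC-1-1, with 85.4% and 85.3% in TRMT1L KO and 86.1% and 88.7% in WT, and Val-TAC-1-1, with 82.3% and 85.3% in TRMT1L KO and 83.9% and 83.2% in WT. In both, deletions and mismatches contributed in like measure: Glu-TTC-1-1 averaged 45.5% deletions and 37.6% mismatches in TRMT1L KO, against 46.9% and 38.7% in WT. The 9 references of threonine, serine and the arginine tRNAs Arg-TCT and Arg-CCT, in which position 32 is known as the site of 3-methylcytidine, all lay at 19.02% or less in TRMT1L KO and 17.4% or less in WT. Their summed error averaged 12.7% and 13.7% in TRMT1L KO and 13.1% and 13.4% in WT. The other 39 references averaged 33.7% and 34.4% in TRMT1L KO and 33.1% and 33.7% in WT. The highest of the 9 was Arg-CCT-1-1, with 19.01% and 19.04% in TRMT1L KO and 17.6% and 17.2% in WT, so every member lay below the mean of the others. The group was not separate, since other references were as low, among them Lys-TTT-3-3 with 8.45% and 8.46% in TRMT1L KO and 7.46% and 5.91% in WT, and Gly-GCC-2-1 with 8.27% and 9.78% in TRMT1L KO and 7.99% and 8.35% in WT.

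A further list at position 32 held the 9 references of phenylalanine, tryptophan, leucine and glutamine, where a 2'-O-methyl group on the ribose is known. They were not quiet as a group: the summed error ran from 12.02% to 64.3% in TRMT1L KO and from 11.8% to 66.6% in WT. Leu-TAG-1-1 was at the top with 64.6% and 63.99% in TRMT1L KO and 69.8% and 63.5% in WT, followed by Leu-CAG-1-4 with 48.4% and 51.2% in TRMT1L KO and 46.1% and 52.5% in WT.

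At position 33, 45 of the 48 references had a WT summed error of 29.0% or more, and 3 were read almost cleanly. Asn-GTT-2-1 had 4.86% and 5.56% in TRMT1L KO and 4.88% and 3.89% in WT. The initiator tRNA iMet-CAT-1-6, which in vertebrates carries a cytidine in place of the usual uridine 33, had 6.06% and 6.94% in TRMT1L KO and 5.36% and 6.597% in WT. Gly-GCC-2-1 had 8.88% and 9.49% in TRMT1L KO and 8.83% and 8.02% in WT. The low level of these 3 was present in all 4 libraries, in mismatches as in deletions. At the other end Gly-TCC-2-5 and Val-TAC-1-1 had summed errors of 81.6% and 79.3% in TRMT1L KO and 80.1% and 79.7% in WT.

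At the wobble position 34 the mean error differed by base, taken from the first letter of the anticodon in the tRNA name. Ranges overlapped, with summed errors of 24.8% to 78.9% for uridine and 6.39% to 55.4% for cytidine in TRMT1L KO. In WT these were 21.5% to 79.2% and 5.57% to 57.2%. The mean summed error over the 14 references with uridine was 61.9% in TRMT1L KO and 60.1% in WT, and over the 9 with adenosine 55.2% in TRMT1L KO and 53.6% in WT. It was 35.1% in TRMT1L KO and 31.6% in WT over the 9 with guanosine, and 25.4% in TRMT1L KO and 25.6% in WT over the 16 with cytidine. The order came from mismatches, which averaged 42.6% in TRMT1L KO and 41.1% in WT for uridine, 29.7% in TRMT1L KO and 28.8% in WT for adenosine, 14.7% in TRMT1L KO and 13.1% in WT for guanosine, and 9.25% in TRMT1L KO and 9.53% in WT for cytidine. Deletions differed less between bases, from means of 13.5% in TRMT1L KO and 13.4% in WT for cytidine to 24.02% in TRMT1L KO and 23.3% in WT for adenosine. Insertions were fewest for uridine, at 1.13% in TRMT1L KO and 1.18% in WT, and most for guanosine and cytidine, at 2.61% and 2.68% in TRMT1L KO and 2.76% and 2.74% in WT. References that share a base also share much of the pore's reading of it, so they are not replicates and the contrast between bases is given with no test.

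**Figure D2:**
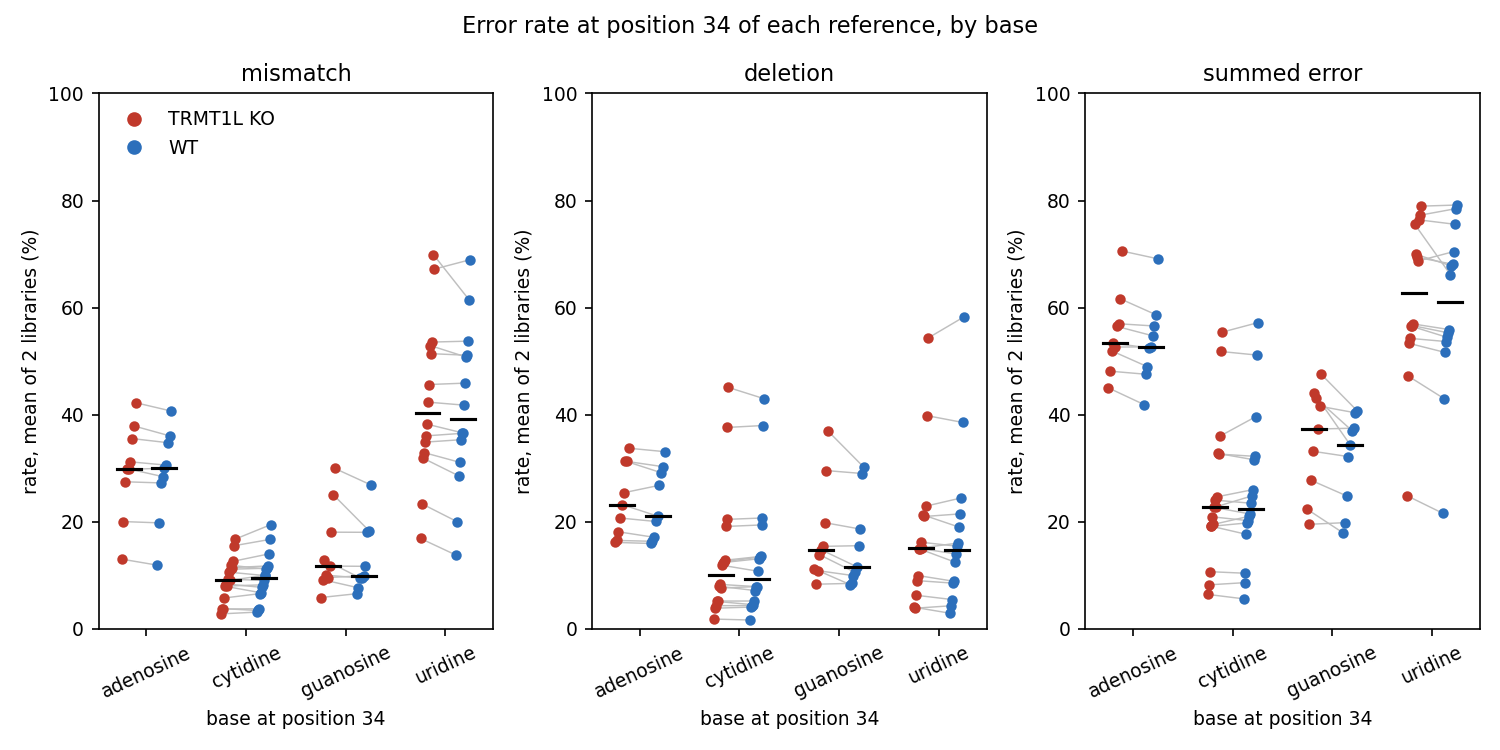
Mismatch, deletion and summed error (y axes, percent, mean of 2 libraries) at position 34 of the 48 references, grouped by the base at that position (x axis), with TRMT1L KO in red left of WT in blue, a grey line joining each reference and black bars for medians. Mismatches are highest for uridine and lowest for cytidine, and the spread within a base exceeds the difference between genotypes.

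Uridine 34 spread the most. Mismatches were highest in Gln-TTG-1-1 in TRMT1L KO and in Arg-TCG-1-1 in WT. Arg-TCG-1-1 had 66.8% and 67.6% in TRMT1L KO and 68.7% and 69.2% in WT. They were lowest in both genotypes in Ala-TGC-3-1, with 17.2% and 16.5% in TRMT1L KO and 12.6% and 14.8% in WT. Deletions were highest in Lys-TTT-3-3, with 54.8% and 53.7% in TRMT1L KO and 56.8% and 59.6% in WT, while Gln-TTG-1-1 had 4.33% and 3.70% in TRMT1L KO and 3.24% and 2.53% in WT, the lowest of the letter in WT only. Lysine and glutamine tRNAs are both known to carry a methoxycarbonylmethyl side chain and a thio group on this uridine, while here Lys-TTT-3-3 was read as deletions and Gln-TTG-1-1 as mismatches, at 73.4% and 66.4% in TRMT1L KO and 58.3% and 64.5% in WT. The 5 references listed by name for side chains (Lys-TTT, Glu-TTC, Gln-TTG, Arg-TCT and Gly-TCC) averaged a summed error of 70.3% and 68.7% in TRMT1L KO and 65.3% and 67.4% in WT. The other 9 with uridine averaged 58.8% and 56.4% in TRMT1L KO and 54.8% and 58.3% in WT. The mean of the listed group was thus higher by 9.12 points or more in each library. The ranges overlapped widely, at 47.2% to 78.9% for the list and 24.8% to 77.3% for the others in TRMT1L KO. In WT they were 43.0% to 79.2% and 21.5% to 78.5%. The other 9 were not shown to lack a side chain, so this does not compare uridines with and without one. The mean deletion rate was 25.8% over these 5 and 13.8% over the other 9 in TRMT1L KO, and 25.8% and 13.4% in WT. The medians were closer, at 16.1% and 14.9% in TRMT1L KO and 15.4% and 12.4% in WT. Deletions in the list ran from 4.01% to 54.3% in TRMT1L KO and from 2.89% to 58.2% in WT. In the other 9 they ran from 3.81% to 22.9% in TRMT1L KO and from 4.27% to 24.4% in WT. Lys-TTT-3-3 was the highest of the list but not the only member that raised its mean.

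Adenosine 34, which is deaminated to inosine by the ADAT2 and ADAT3 enzyme in nearly all tRNAs that encode it, gave a narrower band. In the 8 references other than tyrosine the summed error ran from 45.01% to 70.6% in TRMT1L KO and from 41.9% to 69.1% in WT. Ser-AGA-2-5 was highest, with 70.8% and 70.3% in TRMT1L KO and 69.5% and 68.7% in WT, and also had the most deletions, 33.3% and 34.1% in TRMT1L KO and 34.9% and 31.3% in WT. Ala-AGC-8-2 had the most mismatches, 43.7% and 40.8% in TRMT1L KO and 38.2% and 43.07% in WT, and Val-AAC-1-4 the fewest, 12.7% and 13.3% in TRMT1L KO and 10.5% and 13.2% in WT. Tyr-ATA-1-1 had 46.9% and 49.3% summed error in TRMT1L KO and 43.9% and 51.2% in WT, inside the range of the other 8.

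Cytidine 34 had the lowest mean error of the 4 letters, with a median summed error of 22.7% in TRMT1L KO and 22.4% in WT. Leu-CAA-4-1, in which NSUN2 methylates this cytidine, had 2.68% and 2.83% mismatches in TRMT1L KO and 2.95% and 3.23% in WT, the lowest of all 48 references. Its summed error of 7.67% and 8.69% in TRMT1L KO and 8.39% and 8.78% in WT was near that of Trp-CCA-4-1, with 6.36% and 6.43% in TRMT1L KO and 4.96% and 6.17% in WT, the lowest at this position. At the other end Lys-CTT-3-1 had 45.9% and 44.2% deletions in TRMT1L KO and 40.5% and 45.4% in WT, while Gln-CTG-1-1 had the most mismatches, 17.8% and 15.6% in TRMT1L KO and 20.9% and 18.03% in WT. The 3 references with a known 2'-O-methyl group at 34 (phenylalanine, tryptophan and the elongator methionine) did not form a level: Phe-GAA-2-1 had 40.09% and 43.04% summed error in TRMT1L KO and 40.7% and 39.9% in WT, and Met-CAT-5-2 had 23.7% and 25.6% in TRMT1L KO and 25.3% and 26.7% in WT.

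At the middle and last letters of the anticodon, positions 35 and 36, mean errors differed by base as well, but the ranges of most bases overlapped. At position 35 the 14 references with adenosine had summed errors of 37.7% to 89.3% in TRMT1L KO and 34.3% to 88.6% in WT. The 11 references with cytidine had 5.88% to 33.6% in TRMT1L KO and 5.87% to 33.5% in WT, so that these bases did not overlap in either genotype. Uridine and guanosine lay between, with means of 55.8% and 33.4% in TRMT1L KO and 52.8% and 33.05% in WT. At position 36 uridine averaged 58.5% in TRMT1L KO and 58.6% in WT, adenosine 56.6% in TRMT1L KO and 56.05% in WT, guanosine 44.7% in TRMT1L KO and 43.96% in WT, and cytidine 28.4% in TRMT1L KO and 27.5% in WT. The ranges there overlapped, with guanosine at 9.08% to 76.1% and cytidine at 14.2% to 53.2% in TRMT1L KO. In WT these were 8.84% to 74.5% and 13.8% to 53.0%. Cytidine was thus the most accurately read base at 34, 35 and 36, by mean summed error in both genotypes.

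The noisiest nucleotide of the whole loop was adenosine 35 of Leu-CAA-4-1, with a summed error of 88.8% and 89.7% in TRMT1L KO and 88.6% and 88.5% in WT. Its next nucleotide, 36, had 78.5% and 78.8% in TRMT1L KO and 80.4% and 76.5% in WT, mostly as mismatches, beside the clean cytidine 34 of the same tRNA. In Trp-CCA-4-1 the cytidines 34 and 35 were both read cleanly, with 5.94% and 5.81% at 35 in TRMT1L KO and 6.18% and 5.56% in WT. The tyrosine tRNA Tyr-GTA-2-1, whose uridine 35 is known as a pseudouridine, had 77.1% and 78.6% in TRMT1L KO and 72.04% and 72.6% in WT.

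Position 37 was grouped by the third letter of the anticodon, position 36, which is linked to the modification made next to it. The mean summed error was 57.7% in TRMT1L KO and 56.5% in WT where the third letter is T, 50.8% in TRMT1L KO and 49.7% in WT where it is C, 48.3% in TRMT1L KO and 49.06% in WT where it is A, and 44.7% in TRMT1L KO and 44.2% in WT where it is G. Letter means were closer than at 34, and the spread inside a letter was wide, since the members with A as the third letter ran from 19.07% to 81.02% in TRMT1L KO and from 17.8% to 79.6% in WT. The kinds of error differed too: the mean deletion rate was highest for C, at 27.98% in TRMT1L KO and 27.06% in WT, and mismatches were lowest for C, at 19.8% in TRMT1L KO and 19.4% in WT.

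Serine and alanine tRNAs lay at or near the top of their letters at position 37. The 3 serine references with A as the third letter, in which TRIT1 is known to make isopentenyladenosine, had means of 81.02%, 79.8% and 73.9% in TRMT1L KO (Ser-AGA-2-5, Ser-CGA-2-1 and Ser-TGA-1-1), against 79.1%, 79.6% and 74.4% in WT. Over these 3 the libraries averaged 78.5% and 77.98% in TRMT1L KO and 75.8% and 79.7% in WT, while the other 7 references with A as the third letter averaged 35.001% and 35.96% in TRMT1L KO and 37.6% and 36.01% in WT. Ser-CGA-2-1 had the most mismatches of the letter, 50.6% and 56.8% in TRMT1L KO and 50.1% and 51.7% in WT. Among the others, Phe-GAA-2-1, the tRNA of the bulky wybutosine, had 39.06% and 41.7% in TRMT1L KO and 44.7% and 37.4% in WT, with 5.82% and 8.02% deletions in TRMT1L KO and 7.10% and 5.52% in WT, the fewest of the letter in WT and not in TRMT1L KO.

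Alanine tRNAs, in which adenosine 37 is deaminated by ADAT1 and then methylated to 1-methylinosine, were similar. Ala-AGC-8-2 had 81.9% and 80.6% summed error at 37 in TRMT1L KO and 80.3% and 81.7% in WT. Ala-CGC-2-1 had 74.3% and 75.97% in TRMT1L KO and 74.8% and 75.5% in WT, and Ala-TGC-3-1 had 66.5% and 68.5% in TRMT1L KO and 70.5% and 68.8% in WT. The other 9 references with C as the third letter averaged 41.6% and 44.1% in TRMT1L KO and 40.7% and 41.6% in WT, but reached 73.9% in WT at their highest. The alanine group was therefore higher on average in every library without being separate. Gly-GCC-2-1 had the most deletions at 37 of any reference, 57.2% and 53.02% in TRMT1L KO and 58.4% and 53.07% in WT.

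**Figure D3:**
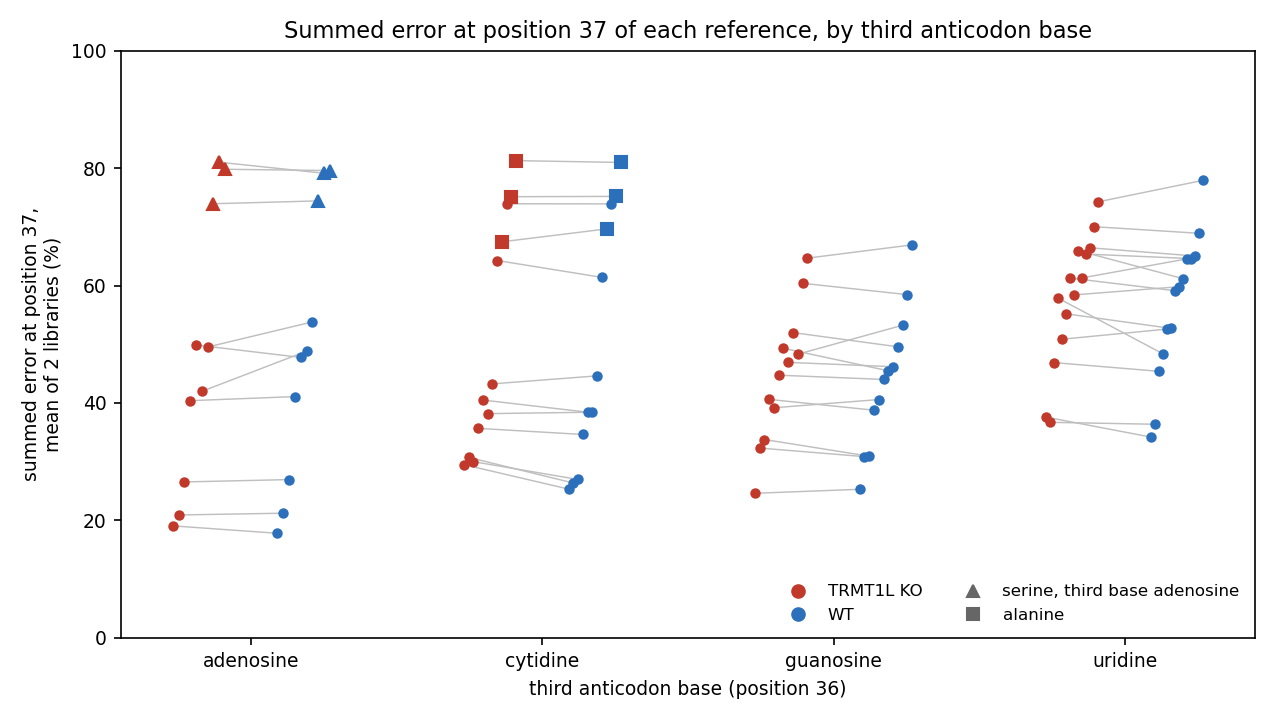
Summed error at position 37 (y axis, percent, mean of 2 libraries) of the 48 references, grouped by the base of the third anticodon letter (x axis), TRMT1L KO in red left of WT in blue with a grey line joining each reference. Triangles are serine references with A as the third letter and squares are alanine references, which lie at or near the top of their letters in both genotypes.

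The 14 references with T as the third letter are those of threonylcarbamoyladenosine, the product of YRDC and the KEOPS complex, and had a median summed error at 37 of 59.8% in TRMT1L KO and 59.5% in WT. Lys-TTT-3-3 led them with 74.1% and 74.4% in TRMT1L KO and 76.9% and 78.96% in WT, followed by Lys-CTT-3-1 with 71.4% and 68.7% in TRMT1L KO and 64.9% and 72.9% in WT. The initiator iMet-CAT-1-6 had the fewest deletions of the letter, 14.8% and 13.7% in TRMT1L KO and 12.3% and 14.5% in WT. The 9 leucine, proline and arginine references with G as the third letter, in which TRMT5 makes 1-methylguanosine, had a median of 40.6% in TRMT1L KO and 40.6% in WT. Their median mismatch rate was 29.8% in TRMT1L KO and 30.01% in WT, and their median deletion rate 7.93% in TRMT1L KO and 8.52% in WT. Arg-CCG-2-1 had 64.5% and 64.9% in TRMT1L KO and 67.09% and 66.8% in WT. Gln-CTG-1-1, with the same letter but outside that list, was read the opposite way, with 6.05% and 6.09% mismatches in TRMT1L KO and 5.32% and 5.10% in WT, beside 43.04% and 41.7% deletions in TRMT1L KO and 39.4% and 39.4% in WT.

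Position 38, at the 3' end of the loop, averaged 43.9% and 43.1% summed error in TRMT1L KO and 42.5% and 43.4% in WT. The highest were Gly-CCC-2-1, with 69.9% and 73.8% in TRMT1L KO and 65.4% and 75.07% in WT, and Trp-CCA-4-1, with 67.8% and 68.5% in TRMT1L KO and 69.6% and 69.6% in WT. Of the 3 references whose cytidine 38 is methylated by TRDMT1, 2 were read mainly as deletions. Gly-GCC-2-1 had 42.4% and 38.5% deletions in TRMT1L KO and 43.6% and 39.7% in WT, and Asp-GTC-2-6 had 40.2% and 45.9% in TRMT1L KO and 34.6% and 41.1% in WT. The third, Val-AAC-1-4, had more mismatches, 23.8% and 23.1% in TRMT1L KO and 22.5% and 25.3% in WT, than deletions, 15.4% and 17.6% in TRMT1L KO and 15.2% and 18.2% in WT. Over all 3, mean deletions exceeded those of the other 45 references by 18.3 and 19.8 points in the TRMT1L KO libraries and by 17.9 and 18.8 points in the WT libraries, while mean mismatches were lower by 8.01 points or more in each.

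The knockout was then set against WT at every loop nucleotide, to ask whether loss of an enzyme of the neighbouring stem altered the loop. By limma on all 3721 nucleotides, with Benjamini-Hochberg adjustment and a threshold of 0.05, 0 of the 336 loop nucleotides passed for mismatch, deletion, insertion or the summed error. Over all nucleotides 0.511% passed for mismatch, 1.16% for deletion, 0.107% for insertion and 0.591% for the summed error. At an unadjusted p under 0.05 there were 16 loop nucleotides for mismatch (4.76% of the loop, against 6.83% of all nucleotides), 27 for deletion (8.04% against 11.2%), 22 for insertion (6.55% against 5.64%) and 20 for the summed error (5.95% against 9.19%). The loop shares were close to or below the background for 3 of the 4 measures and slightly above it for insertion.

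The loop as a whole differed little, by about as much as the rest of the molecule. Its mean summed error differed by 0.813 points between genotypes (44.7% ± 0.00868 in TRMT1L KO and 43.9% ± 0.785 in WT, SD, n = 2 libraries each), with an exact two-sided permutation p of 0.333, the smallest that 2 libraries against 2 can give. Over the rest of the tRNA the difference was 0.829 points. Mean deletions in the loop were 0.724 points higher (exact permutation p = 0.333) and mean mismatches 0.235 points higher (exact permutation p = 0.667), against 0.545 and 0.316 points over the rest. Mean insertions were lower in both TRMT1L KO libraries, with a difference of -0.145 points (exact permutation p = 0.333), against -0.0318 points over the rest. Relative to the rest of the tRNA, the summed difference of the loop was -0.0163 points. The loop difference hung on the WT libraries: it was 0.258 points without WT replicate 1 and 1.37 points without WT replicate 2, and for deletions 0.353 and 1.09 points.

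The TRMT1L KO mean was the higher at 191 of the 336 loop nucleotides for mismatch, 226 for deletion, 131 for insertion and 220 for the summed error, or 56.8%, 67.3%, 38.99% and 65.5%. Over all nucleotides it was the higher at 63.2%, 73.4%, 48.7% and 69.7%, so the loop lay below the background in each. Deletions were higher in both TRMT1L KO libraries at 106 of 336 loop nucleotides and lower at 17, against 35% and 7.07% of all nucleotides. Mismatches were higher at 67 and lower at 41, against 24.9% and 10.9%. Insertions were higher at 38 and lower at 73, against 16.0% and 17.2%, so 21.7% of loop nucleotides had fewer insertions in both TRMT1L KO libraries. The summed error was higher at 83 and lower at 43, against 30.4% and 7.95%, so a larger share of the loop than of all nucleotides was lower in both TRMT1L KO libraries, 12.8%. The median size of a difference in the summed error was 1.36 points, beside a median SD between libraries of 1.07 points in TRMT1L KO and 1.41 points in WT. Across the 336 loop nucleotides the genotype means of the summed error correlated with r = 0.993, and the replicates with 0.989 in TRMT1L KO and 0.988 in WT, as a description of nucleotides that share their libraries. Of the 336, 17 differed by over 5 points, against 169 of the 3385 in the rest of the tRNA. The single nucleotides named next by their differences in mismatch or deletion were mostly taken as the largest without overlap at their position, so for them the lack of overlap was fixed by the choice.

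**Figure D4:**
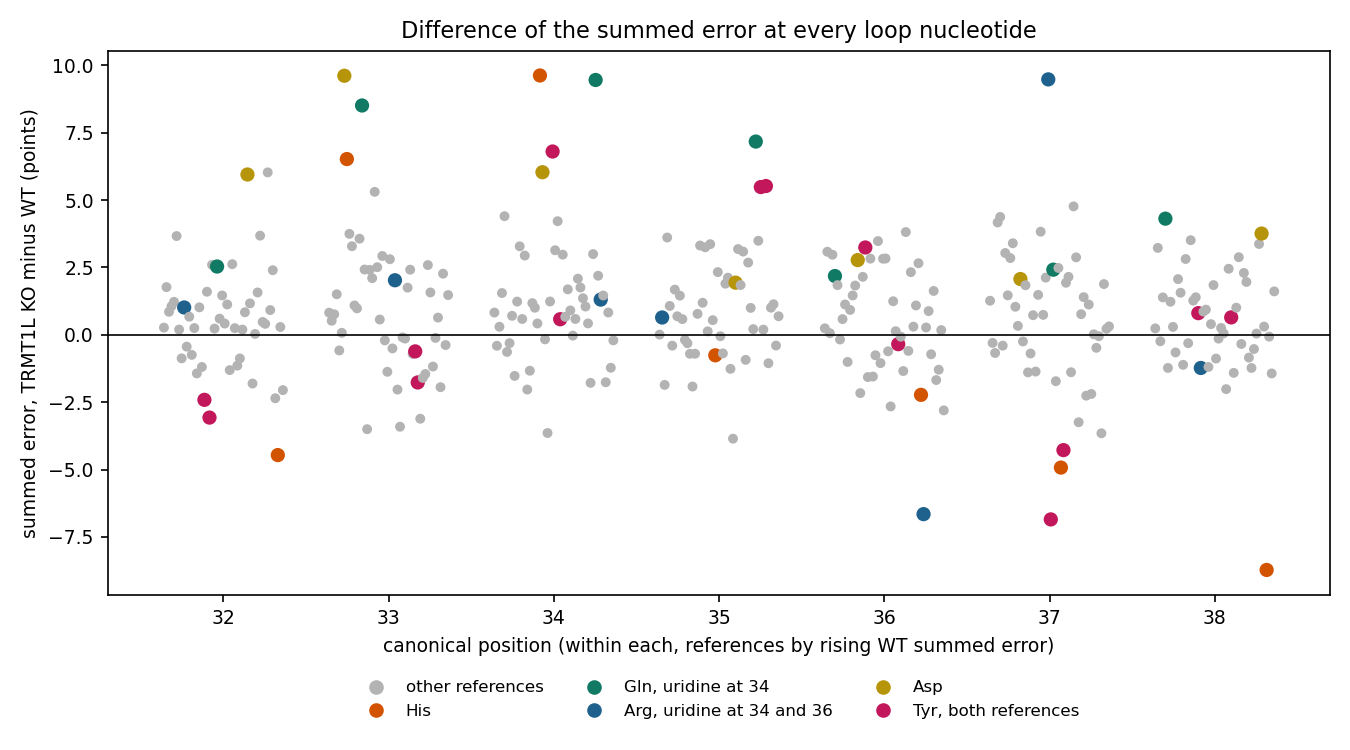
Difference of the summed error, TRMT1L KO minus WT in percentage points (y axis), at each of the 336 loop nucleotides by canonical position (x axis), references ordered within a position by WT summed error. Coloured points mark tRNAs named in the text, which hold the widest differences in both directions, and most grey points lie within 5 points of 0.

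The 4 tRNAs known to carry queuosine at position 34, a guanosine derivative put in place by the QTRT1 and QTRT2 enzyme, had higher summed errors at that position in TRMT1L KO, though none passed the test. His-GTG-1-5 had 40.3% and 47.6% in TRMT1L KO and 33.7% and 34.97% in WT, a difference of 9.62 points (limma adjusted p = 0.247). Tyr-GTA-2-1 had 46.2% and 48.8% in TRMT1L KO and 38.7% and 42.7% in WT, a difference of 6.80 points (limma adjusted p = 0.429). Asn-GTT-2-1 had 19.9% and 24.7% in TRMT1L KO and 17.97% and 17.8% in WT, a difference of 4.40 points (limma adjusted p = 0.512). In these 3 the libraries of the genotypes did not overlap. Over all nucleotides, the summed error was higher in both TRMT1L KO libraries at 30.4%, and its TRMT1L KO mean was the higher at 69.7%. Asp-GTC-2-6 had 35.3% and 50.8% in TRMT1L KO and 35.8% and 38.2% in WT, where TRMT1L KO replicate 1 lay below both WT libraries, with a difference of 6.03 points (limma adjusted p = 0.735). The median difference over the 4 was 6.42 points, beside 1.00 points over the other 5 references with guanosine 34 and 0.805 points over all 3721 nucleotides. Higher summed errors were not confined to position 34 in these tRNAs. The difference at 33 was 9.61 (Asp-GTC-2-6), 6.52 (His-GTG-1-5), 0.820 (Asn-GTT-2-1) and -0.616 points (Tyr-GTA-2-1). Averaged over the loop it was 4.59 (aspartate), 2.73 (asparagine), 0.414 (tyrosine) and -0.709 points (histidine). Whether the difference was particular to position 34 was not tested.

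Set against the other guanosines within each library, the queuosine group stood 4.27 and 10.4 points higher in the TRMT1L KO libraries and 0.489 and 2.66 points higher in the WT libraries. These did not overlap, and the difference of 5.78 points had an exact permutation p of 0.333, the smallest possible here. TRMT1L KO replicate 2 carried the wider value. Deletions were higher in all 4 tRNAs, by 2.92 to 6.77 points with no overlap in 3, and mismatches were higher in 3 of 4, also with no overlap in 3. Over all nucleotides, 73.4% were higher and 35% higher without overlap for deletions, and 63.2% and 24.9% for mismatches, so the count of 3 of 4 higher mismatches is near the background.

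Histidine tRNA differed at both ends of the loop in the opposite sense. At position 32 of His-GTG-1-5 mismatches were 50.6% and 44.7% in TRMT1L KO and 57.6% and 57.7% in WT, a difference of -10.04 points (limma adjusted p = 0.127), the largest of any loop nucleotide in 1 kind of error. Deletions at 32 were 18.97% and 24.3% in TRMT1L KO and 14.7% and 17.5% in WT, a difference of 5.50 points (limma adjusted p = 0.220), so that the summed error differed by less. At position 38, which faces 32, mismatches were 36.04% and 29.7% in TRMT1L KO and 39.97% and 42.9% in WT, a difference of -8.57 points (limma adjusted p = 0.261). TRMT1L KO replicate 2 was the farther from WT in each of these. Without TRMT1L KO replicate 1 the mismatch differences were -13.02 points at 32, 8.86 points at 34 and -11.7 points at 38. Without TRMT1L KO replicate 2 the mismatch differences were -7.07 points at 32 and -5.41 points at 38, and the deletion difference at 32 was 2.82 points. Averaged over the 7 loop positions the summed error of His-GTG-1-5 was 51.6% and 51.9% in TRMT1L KO and 51.8% and 53.1% in WT, a difference of -0.709 points, the lowest of the 48 references.

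**Figure D5:**
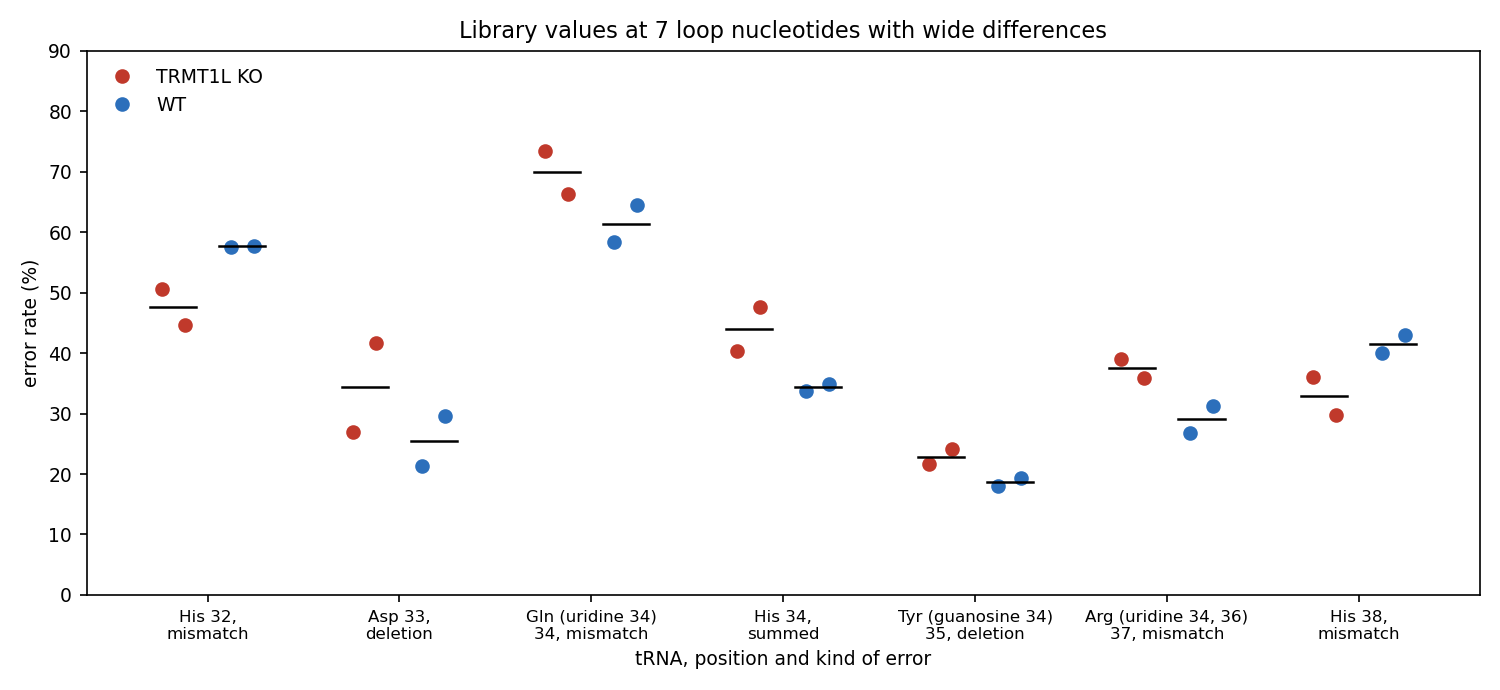
Error rate in percent (y axis) at 7 loop nucleotides with wide differences between genotypes (x axis: tRNA, position and kind of error), a point for each library, TRMT1L KO in red left of WT in blue, bars for genotype means. The genotypes do not overlap except at position 33 of the aspartate tRNA, where TRMT1L KO replicate 1 lies between the WT libraries. For most of the others the lack of overlap was fixed by the choice.

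Gln-TTG-1-1 had the largest difference of the loop mean of all references, 46.3% and 43.8% in TRMT1L KO and 38.4% and 41.3% in WT, or 5.23 points. The summed error was higher at all 7 positions, by 2.18 to 9.46 points, and the widest differences were at the neighbouring positions 33, 34 and 35. At the wobble uridine 34 mismatches were 73.4% and 66.4% in TRMT1L KO and 58.3% and 64.5% in WT, a difference of 8.49 points (limma adjusted p = 0.411). At 33 mismatches were 29.4% and 30.3% in TRMT1L KO and 25.2% and 25.5% in WT (4.50 points, limma adjusted p = 0.596), and at 35 they were 61.8% and 55.4% in TRMT1L KO and 48.6% and 54.7% in WT (6.95 points, limma adjusted p = 0.590). The mismatch differences at 34 and 35 hung on single libraries: they were 4.95 and 3.80 points without TRMT1L KO replicate 1, and 5.42 and 3.92 points without WT replicate 1. Without TRMT1L KO replicate 2 the mismatch difference at 34 was 12.03 points. Without WT replicate 2 the summed difference was 10.1 points at 33 and 12.5 points at 34. The other references listed above for side chains on uridine 34 differed in the summed error by -0.208 points (Lys-TTT-3-3) to 4.22 points (Glu-TTC-1-1). Lys-TTT-3-3 had fewer deletions at 34 in TRMT1L KO (-3.95 points, limma adjusted p = 0.577).

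Arg-TCT-1-1 differed at its last anticodon letter and the nucleotide after it. At the threonylcarbamoyladenosine site 37 mismatches were 39.04% and 35.9% in TRMT1L KO and 26.9% and 31.2% in WT, a difference of 8.42 points (limma adjusted p = 0.1999). At 36 they were 41.04% and 41.9% in TRMT1L KO and 45.1% and 48.9% in WT, a difference of -5.58 points (limma adjusted p = 0.571). The directions were opposite at the adjacent nucleotides, and the difference at 36 was -3.67 points without WT replicate 2. The mismatch difference at 37 was 9.99 points without TRMT1L KO replicate 2, and the summed difference at 37 was 10.7 points without WT replicate 2. The omissions at 37 dropped the library that lay nearer to the other genotype, while the omission at 36 dropped the farther one. Over all 14 references of the threonylcarbamoyladenosine list the median difference at 37 was 1.26 points in the summed error, 10 higher and 4 lower, beside 69.7% higher among all nucleotides.

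In Asp-GTC-2-6 the difference rested on 1 library. Deletions at position 33 were 26.9% and 41.8% in TRMT1L KO and 21.3% and 29.6% in WT, a difference of 8.87 points (limma adjusted p = 0.553), and at position 34 they were 29.7% and 44.1% in TRMT1L KO and 27.7% and 32.6% in WT (6.77 points, limma adjusted p = 0.633). TRMT1L KO replicate 2 was above all other libraries at both, and TRMT1L KO replicate 1 lay within the WT range. Without TRMT1L KO replicate 1 the deletion differences were 11.6 points at 32, 16.3 points at 33 and 13.98 points at 34. At position 34 of Leu-TAA-1-1 the deletion difference was 2.50 points with all libraries (limma adjusted p = 0.659) and 5.62 points without WT replicate 2. Position 33 of Asp-GTC-2-6 and position 34 of Leu-TAA-1-1 were named after their values were seen.

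Tyrosine tRNA, the substrate that the series' title names, was compared at all 7 loop positions in both references, and none passed. At 35 of Tyr-GTA-2-1, the pseudouridine next to the wobble base, the summed error differed by 5.52 points (limma adjusted p = 0.326), mainly as deletions, which were 21.6% and 24.1% in TRMT1L KO and 18.1% and 19.3% in WT. Deletions at 33 were 23.3% and 23.2% in TRMT1L KO and 19.1% and 18.3% in WT, a difference of 4.55 points (limma adjusted p = 0.288). At 37 the summed error was 42.6% and 41.4% in TRMT1L KO and 47.97% and 49.7% in WT, a difference of -6.85 points (limma adjusted p = 0.336). The summed errors at 35 and 37 did not overlap between genotypes. Over all nucleotides the summed error was higher without overlap at 30.4% and lower without overlap at 7.95%. For the deletions at 33 and 35 the lack of overlap was fixed by the choice. At the ends of the loop the differences were -2.41 points at 32 and 0.803 points at 38.

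Tyr-ATA-1-1 shared the direction at 35 and 37. The summed error at 35 was 69.1% and 68.5% in TRMT1L KO and 61.1% and 65.5% in WT (5.48 points, limma adjusted p = 0.487), and at 37 it was 50% and 49.07% in TRMT1L KO and 55.7% and 51.98% in WT (-4.28 points, limma adjusted p = 0.613), with no overlap at either. At 34, where it carries adenosine and not guanosine, the difference was 0.578 points (limma adjusted p = 0.980). The tyrosine references may share reads, so they are not separate evidence. Without both of them, the loop means differed by 0.837 points in the summed error and 0.708 points in deletions.

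Lys-CTT-3-1 and Glu-CTC-1-1 were among the tRNAs with wider deletion differences without overlap. In Lys-CTT-3-1 deletions at 36 were 25.1% and 24.7% in TRMT1L KO and 18.6% and 21.05% in WT (5.13 points, limma adjusted p = 0.241), and at 37 they were 27.8% and 26.8% in TRMT1L KO and 21.8% and 24.5% in WT (4.12 points, limma adjusted p = 0.423). In Glu-CTC-1-1 deletions at 38 were 14.99% and 16.4% in TRMT1L KO and 12.3% and 12.02% in WT (3.55 points, limma adjusted p = 0.277). None of these 3 passed.

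The lists of several sites other than queuosine showed smaller median differences between genotypes. Median differences in the summed error were -0.440 points for the 9 sites of 3-methylcytidine at 32, 1.02 points for the 9 sites of 2'-O-methylation at 32 and 1.61 points for the 8 inosine sites. They were 0.739 points for the 9 sites of 1-methylguanosine, 0.222 points for the 3 of isopentenyladenosine, -0.0509 points for the 3 of 1-methylinosine and -0.846 points for the 3 of 5-methylcytidine at 38, beside 0.805 points over all nucleotides. No member of any list passed in any kind of error. Of the lists with a single site, pseudouridine 35 of Tyr-GTA-2-1 differed by the 5.52 points given above, 5-methylcytidine 34 of Leu-CAA-4-1 differed by -0.408 points (limma adjusted p = 0.955), and wybutosine 37 of Phe-GAA-2-1 by -0.694 points (limma adjusted p = 0.974).

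By reference, the loop mean of the summed error ran from 28.4% to 58.9% in TRMT1L KO and from 27.3% to 59.3% in WT. Lys-TTT-3-3 was highest, with 59.07% and 58.6% in TRMT1L KO and 59.2% and 59.5% in WT. Asn-GTT-2-1 was the lowest in WT, with 28.4% and 31.7% in TRMT1L KO and 27.1% and 27.5% in WT, and Gly-GCC-2-1 the lowest in TRMT1L KO, with 28.2% and 28.6% in TRMT1L KO and 28.7% and 28.1% in WT. The mean was higher in both TRMT1L KO libraries in 14 references and lower in both in 1, Lys-TTT-3-3, while 30.4% of all single nucleotides were higher in both. Differences ran from -0.709 points in His-GTG-1-5 to 5.23 points in Gln-TTG-1-1, with a median of 0.625 points.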

How the data were processed

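Each deposited value is an error rate of 1 nucleotide, written as a fraction, per the file headers, in 12 sheets (mismatch, deletion and insertion in each of 4 libraries) with 48 tRNA references and no empty cell; a further sheet numbers the nucleotides. The tools named in the submitters' processing notes are BWA, SAMtools and bedtools, without versions. The base caller, read filters and build were not given in the sources used here. Since the sheets give no read depth, it is unknown, values are unweighted and no counting interval is given. Closely similar references can share reads, and a deletion in a run of like bases can fall on any of them. Of the 48 reference names 47 matched a tRNA symbol in RefSeq; no tRNA sequence was used here.

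Arcsine square roots of the fractions were fitted in R 4.3.3 by limma 3.58.1 (eBayes after lmFit, trended and robust) on all 3721 tRNA nucleotides, 2 TRMT1L KO against 2 WT libraries, for each kind of error and their sum, with Benjamini-Hochberg adjustment at 0.05. Loop means were compared by exact two-sided permutation of the 4 libraries (Python 3.11.15, numpy 2.4.6, pandas 2.3.3, scipy 1.17.1). In simulated data with 200 changed nucleotides of 3721, limma recovered 64% of mismatch changes of 5 points and 97% of 10 points, 74% and 100% for deletion, and 42% and 92% for the sum, with 4, 2 and 7 false calls. The simulated noise was normal, with a spread averaged over nucleotides of like rate, so these shares do not hold for noisier nucleotides. In the data, mismatches at 32 of His-GTG-1-5 differed by -10.04 points (limma adjusted p = 0.127). Deletions at 33 of Asp-GTC-2-6 differed by 8.87 points (limma adjusted p = 0.553).

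The loop, its lists of known modifications (from tRNA names) and the naming rule were chosen with earlier results of these data known. The rule names, at each position, the largest mismatch and deletion differences without overlap, the extremes of each letter at 34 and 37, all tyrosine positions and the 3 highest of each list. The labels do not state that same-numbered libraries of the genotypes are pairs, so they were not taken as pairs. Over all nucleotides they deviated oppositely (r = -0.242 for mismatch, -0.132 for deletion, -0.115 for insertion and -0.249 for the sum). Over the loop r was -0.169, 0.00212, -0.0745 and -0.187 in the same order. With 2 numbers, a negative r for same-numbered libraries is a positive r for cross-numbered ones, so it cannot decide whether libraries were paired.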

Additional observations from a re-analysis of the deposited data

How the results depend on the processing

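With all 4 libraries and no block, no loop nucleotide passed with untransformed fractions, log odds, no trend, a filter on low error, numbered nucleotides only or centred libraries, by limma in any kind of error. With a replicate block, 1 passed for mismatch (position 32 of His-GTG-1-5, -10.04 points, limma adjusted p = 0.0182) and 1 for deletion (position 33 of Asp-GTC-2-6, 8.87 points, limma adjusted p = 0.0159). Each was 0.298% of the loop, against 0.967% of all nucleotides for mismatch and 1.53% for deletion. A crossed replicate block, chosen after seeing the data, passed 4 for mismatch and 5 for the summed error. These were 1.19% and 1.49% of the loop, against 1.48% and 1.85% of all nucleotides. Leaving out each library in turn, where the spread of the remaining genotype stands for that of the single library, passed 0 to 3 for mismatch, 0 to 3 for deletion, 0 for insertion and 0 to 4 for the summed error. In each of these runs nucleotides outside the loop also passed for mismatch, deletion and the summed error. The loop share was above that of all nucleotides only without TRMT1L KO replicate 1, for mismatch and the summed error. Elsewhere in these runs it was equal or lower. The cause of these moves in the counts was not tested. The median of members gave 0.616 points for mismatch and -0.108 for insertion in place of the mean, and relative to the rest of the tRNA the loop differed by -0.0818 points for mismatch, 0.179 for deletion, -0.113 for insertion and -0.0163 for the sum. Of the differences named at single positions, 28 were refitted under 12 other settings each. Of the resulting values 11 changed direction, all in tyrosine tRNA and none past the test, and the others kept it. Since no loop nucleotide passed in the main fit, none could lose a call. Centring gave -0.730 and -0.662 points at 34 and 38 of Tyr-ATA-1-1 and -0.504 at 38 of Tyr-GTA-2-1. Leaving out 1 library gave -3.04 to 4.19 points at 34 and -2.65 to 3.94 at 38 of Tyr-ATA-1-1, and -1.46 to 0.229 at 33, -1.08 to 0.387 at 36 and -0.135 to 1.74 at 38 of Tyr-GTA-2-1. Depth is unknown and each genotype had 2 libraries. In simulated data with averaged spreads 42% of changes of 5 points in the summed error were recovered, a share that does not hold for noisier nucleotides.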
